A study of Mus musculus with 6 samples.

Results

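The nuclear genes for subunits of the respiratory chain were followed across the cells of mouse pancreatic tumours. The members were all gene symbols of the count files that start with Nduf followed by a, b, c, s or v and a number, Sdha to Sdhd, Uqcr, Cox4 to Cox8 followed by a, b or c, or Atp5. This rule found 83 of the 32285 genes listed: 36 of complex I, 4 of complex II, 8 of complex III, 18 of complex IV and 17 of complex V. Ndufa4 and its relative Ndufa4l2 were counted with complex IV, where the NDUFA4 protein resides. Cox4i1, Cox4i2, Cyc1, Cycs and Ndufab1 belong to the chain but fall outside the naming rule. Of these, Cox4i1 and Cox4i2 are given separately.

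The tumours were grown in the pancreas of age-matched C57BL/6 mice from KPC cells. KPC cells come from the tumour of a mouse with a mutant Trp53 allele and Cre driven by the pancreatic Pdx1 promoter, and all samples share this origin. Before injection the cells received either an empty vector, OE-Vector, or a construct that overexpresses Mlkl, OE-MLKL. The product of Mlkl is the pseudokinase that breaks the plasma membrane in necroptosis. The tumours were taken 4 weeks after injection, digested fresh and loaded on droplets that capture the 3′ end of transcripts. One OE-Vector library and 3 OE-MLKL libraries were used, each from 1 tumour, and the matrices of OE-Vector 2 and OE-Vector 3 were not analysed here. Per the labels the construct was in the injected cancer cells, while macrophages, neutrophils and T cells came from the host.

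The respiratory chain passes electrons from NADH (complex I) and succinate (complex II) through complex III to oxygen at complex IV, and complex V uses the resulting proton gradient to make ATP. Complex II is encoded entirely in the nucleus, whereas the other complexes also hold subunits encoded in mitochondrial DNA. Some subunits of complex IV exist as isoforms restricted to tissues such as heart, muscle, lung or testis. Mature neutrophils are known to rely mainly on glycolysis and to hold few mitochondria.

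The 4 matrices held 150591289 to 169978362 UMIs. A UMI is a tag that counts each captured molecule once. After filters and removal of 11363 likely doublets, 63182 cells remained, and pairs of libraries shared 89 to 160 barcodes. The labels call the cells pancreatic cancer cells, but only some passed a gate on cancer cell markers: 18681 cells were gated as cancer cells, 9158 as macrophages, 24030 as neutrophils and 2872 as T cells. Per 10000 UMIs, the summed markers of a class reached 22.0 to 42.3 in cancer cells, 327 to 422 in macrophages, 776 to 887 in neutrophils and 41.2 to 54.0 in T cells. Counted on both sides of a gate, from 50 cells for the T cell gate to 1726 for the cancer cell gate lay within 1.25-fold of it. Of the 1726, 877 were in OE-MLKL 1. Doubling the gates left 2915 of the 5934 cancer cells of that library, in which the members held 2.20% of UMIs against 2.13%. Levels are given in CPM, the UMIs of a gene per 1000000 UMIs of its class and library. Mlkl was not higher in every library labelled OE-MLKL: cancer cells of OE-Vector 1 held 16.3 CPM and those of OE-MLKL 1, 2 and 3 held 8.88, 12.99 and 19.7. Whether RNA of the construct would be counted as Mlkl at the captured 3′ end is not stated in the sources used here. The word OE-MLKL therefore stands below for the label of a library.

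Because 3′ capture counts each transcript once, these levels were not divided by gene length. The GENCODE vM21 annotation of GRCm38 placed every member, on 19 chromosomes. Of them, 27 overlap a counted gene on the other strand, and Ndufa13 overlaps Yjefn3 on the same strand. Ndufb1-ps is annotated as a non-coding gene. The counting of strand is not given in the sources used here, so the UMIs of a gene and its antisense partner cannot be told apart.

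The promoters of 6 members are shown because they belong to sets that recur below. Atp5g1, Atp5g2 and Atp5g3 encode the same mature protein, the c subunit that forms the rotating ring of complex V, and all were lower in neutrophils. Cox6a1 and Cox6b1 are the general isoforms of 2 subunits of complex IV, and Cox6b2 is the testis isoform beside Cox6b1. Each sequence is the 170 bases before the RefSeq start of transcription in GRCm38.p6, on the minus strand of chr11:96075632-96075801, chr15:102671048-102671217, chr2:73911327-73911496, chr5:115348959-115349128, chr7:30626115-30626284 and chr7:4753095-4753264, in the order listed. Capitals mark the letters GCGCA, any base, GCGC, read by the factor NRF1, and CCGGAAG, the core read by ETS factors such as GABPA, on either strand.
Atp5g1: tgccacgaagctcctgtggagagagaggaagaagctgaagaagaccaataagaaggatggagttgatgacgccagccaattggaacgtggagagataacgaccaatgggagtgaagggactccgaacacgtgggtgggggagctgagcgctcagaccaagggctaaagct
Atp5g2: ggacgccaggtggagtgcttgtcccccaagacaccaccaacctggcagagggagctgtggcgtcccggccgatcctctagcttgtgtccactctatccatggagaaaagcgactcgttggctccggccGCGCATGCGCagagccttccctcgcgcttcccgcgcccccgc
Atp5g3: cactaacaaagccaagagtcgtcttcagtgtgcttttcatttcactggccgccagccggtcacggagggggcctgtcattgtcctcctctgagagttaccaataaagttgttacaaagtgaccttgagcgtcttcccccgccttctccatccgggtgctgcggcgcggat
Cox6a1: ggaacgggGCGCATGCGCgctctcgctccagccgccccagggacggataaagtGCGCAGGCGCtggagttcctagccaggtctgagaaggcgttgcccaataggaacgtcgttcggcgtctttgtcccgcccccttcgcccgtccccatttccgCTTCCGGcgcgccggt
Cox6b1: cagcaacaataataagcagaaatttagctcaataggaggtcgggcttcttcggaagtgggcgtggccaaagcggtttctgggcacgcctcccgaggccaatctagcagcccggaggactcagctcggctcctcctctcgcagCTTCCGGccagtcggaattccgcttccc
Cox6b2: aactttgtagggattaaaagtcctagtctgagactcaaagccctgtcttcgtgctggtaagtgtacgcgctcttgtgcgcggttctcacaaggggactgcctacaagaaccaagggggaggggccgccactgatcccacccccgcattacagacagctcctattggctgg

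The printed stretch held 1 match to the NRF1 letters in Atp5g2, 2 in Cox6a1 and none in Atp5g1, Atp5g3, Cox6b1 or Cox6b2. Atp5g3 had its match 13 bases after the start, beyond the stretch shown. The ETS letters occurred in Cox6a1 and Cox6b1. Over windows of 300 bases, from 250 before the start to 50 after it, 67 members had a promoter in the RefSeq table. The NRF1 letters, searched on both strands, were found in 17 of them (25.4%), against 1402 of 27025 genes with a promoter (5.19%). The ETS letters were also found in 17 (25.4%), against 9.93% of all genes, and 4 promoters held both. By complex, the NRF1 letters occurred in 7 of 31 promoters of complex I, 2 of 3 of complex II, 1 of 5 of complex III, 1 of 14 of complex IV and 6 of 14 of complex V. Sdha held 3 matches, at 98, 55 and 10 bases before its start. These matches are a description of letters and were not tied to any level reported here.

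The members together held between 0.981% and 2.36% of the UMIs of a class. The cancer cells of OE-Vector 1 held 1.97%, and those of the libraries OE-MLKL 1, 2 and 3 held 2.13%, 2.08% and 1.32%. In macrophages it was 1.91% and then 1.80%, 1.79% and 1.34%. In T cells it was 2.17% and then 2.36%, 2.19% and 1.57%, the highest of the 4 classes in every library. Neutrophils had 1.27% and then 1.80%, 1.65% and 0.981%. They were the lowest class in every library except OE-MLKL 1, where they were level with macrophages. With the 20 most abundant genes left out of the total, neutrophils were above macrophages in OE-MLKL 1, at 2.32% against 2.15%, and both were close in OE-MLKL 2, at 2.148% against 2.141%.

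OE-MLKL 3 had the lowest share in each class, so the spread between libraries was large beside the differences between classes. The mean over the 4 libraries was 1.88% ± 0.376 (SD, n = 4) in cancer cells, 1.71% ± 0.254 in macrophages, 1.43% ± 0.372 in neutrophils and 2.07% ± 0.345 in T cells. Barcodes with 100 UMIs or fewer, taken as RNA free in the suspension, held members at 1.83%, 2.02%, 1.89% and 1.43% in the same order of libraries. Free RNA was estimated at 5.44% to 8.54% of the UMIs of cancer cells and at 12.8% to 21.5% of those of neutrophils. Its share of members lay above that of neutrophils in every library. After subtraction the neutrophil shares were 1.18%, 1.77%, 1.61% and 0.860%.

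**Figure D1:**
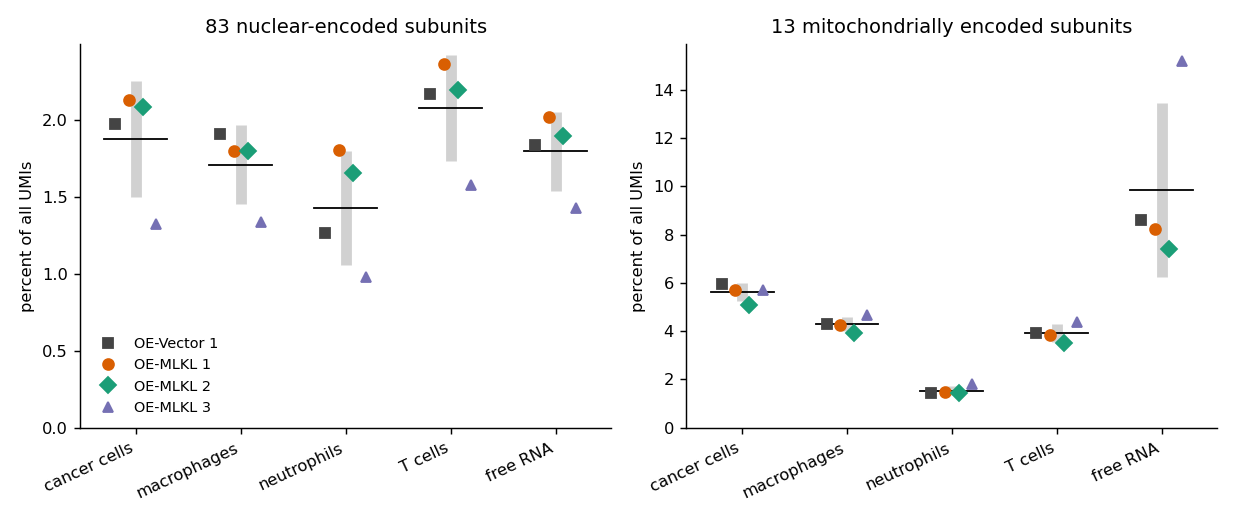
Percent of all UMIs (y axis) held by the 83 nuclear members (left) and by the 13 mitochondrially encoded subunits (right) in each class and in free RNA (x axis). Points are libraries, black lines the mean of 4 libraries and grey bars 1 SD. OE-MLKL 3 is the lowest library on the left in every class, at 0.981% to 1.57%, whereas on the right neutrophils lie below the other classes, at 1.42% to 1.81%.

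The 13 subunits encoded in mitochondrial DNA separated neutrophils from the other classes more widely. The neutrophil values were 1.44% for OE-Vector 1, then 1.46%, 1.42% and 1.81% for the OE-MLKL libraries. In cancer cells the values were 5.95%, 5.70%, 5.07% and 5.70%. Macrophages held 4.29% ± 0.291 and T cells 3.91% ± 0.365 (SD, n = 4). No library of neutrophils overlapped with any library of another class. At the estimated levels of free RNA, free RNA alone would bring 1.14%, 1.06%, 1.12% and 3.26% of neutrophil UMIs from these genes. That is more than was measured in OE-MLKL 3 and most of the measured value in the other libraries, so for OE-MLKL 3 the estimate is too high. The neutrophil level is therefore an upper limit, and the subtracted member shares rest on the same estimate. In cancer cells free RNA would bring 0.448% to 1.30%. Cancer cells carried 3.11 ± 0.836 mitochondrially encoded UMIs per member UMI, macrophages 2.58 ± 0.608, T cells 1.96 ± 0.564 and neutrophils 1.16 ± 0.478. This ratio was highest in OE-MLKL 3 in each class. Cells at or above 10% mitochondrial UMIs had been removed, which limits these values from above.

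The complexes took similar parts of the member UMIs in every class. Complex V held 32.8% ± 1.17 of the member UMIs of cancer cells (SD, n = 4) and complex I 32.2% ± 0.901. Complex IV followed with 24.1% ± 0.858, complex III with 9.15% ± 0.293 and complex II with 1.78% ± 0.259. Neutrophils differed mainly in complex IV, at 26.7% ± 1.25, and complex V, at 29.7% ± 1.05. Macrophages had the highest part of complex II, at 2.32% ± 0.264. The median member stood at 173 CPM in cancer cells, 172 in macrophages, 129 in neutrophils and 213 in T cells. The highest was Cox6c in cancer cells (972) and Cox8a in macrophages (853), neutrophils (1097) and T cells (1018).

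To ask which subunits differed between classes, UMI sums per library and class were compared within libraries by edgeR's quasi-likelihood test, with p-values adjusted by the method of Benjamini and Hochberg over 13960 genes. Of the 83 members, 79 passed the filter on low counts and Cox6a2, Cox7b2, Cox8b and Cox8c did not. Between cancer cells and macrophages 43 members differed at an adjusted p under 0.05, where 69.6% of all genes did. Of these, 13 were higher in cancer cells (38% of all genes) and 30 lower (31.6% of all genes). Between cancer cells and neutrophils 58 members differed (81.3% of all genes), 40 higher in cancer cells (46.5% of all genes) and 18 lower (34.8% of all genes).

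Between cancer cells and T cells 42 members differed (66.3% of all genes), 13 higher in cancer cells (35.2% of all genes) and 29 lower (31% of all genes). Between macrophages and neutrophils 55 members differed (70% of all genes), 43 higher in macrophages (37.8% of all genes) and 12 lower (32.2% of all genes). The counts of called members, here and by complex, include Cox6b2 in each comparison with cancer cells. They also include Ndufa4l2 between cancer cells and T cells and Cox7a1 between macrophages and neutrophils. Each passed the low-count filter through a class where it was higher, so these calls are not evidence of a difference. The direction depended on scaling: with DESeq2 size factors 9 of 48 called members were higher in cancer cells than in macrophages, and with library size alone 22 of 34. Against neutrophils the splits were 34 of 63 and 47 of 59, against T cells 7 of 47 and 14 of 40, and between macrophages and neutrophils 36 of 52 and 46 of 57. The median of all genes itself moved with scaling, most widely between cancer cells and neutrophils, from -0.01 to 0.53 on the log2 scale. Relative to that median, the median member was lower by 0.23 in cancer cells than in macrophages and by 0.19 to 0.20 than in T cells. It was higher by 0.31 to 0.32 in macrophages than in neutrophils, and it lay within 0.01 of the median gene between cancer cells and neutrophils. These offsets depend on the genes that set the median, here those past the low-count filter. Without that filter they were -0.42, -0.41, 0.39 and -0.16 in the same order.

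**Figure D2:**
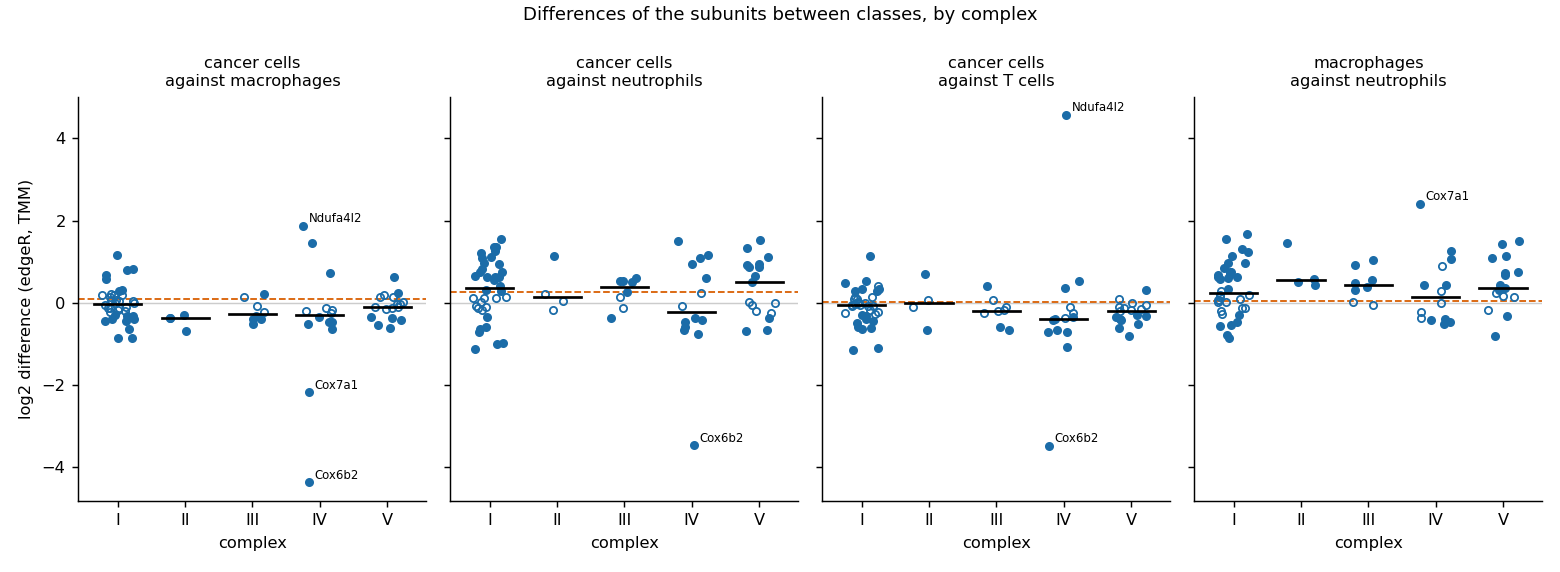
Fitted log2 difference (y axis) of each member between the classes named above each panel, by complex (x axis). Filled points passed an adjusted p of 0.05, black lines are the median of the complex and the dashed line is the median of all genes tested. The filled points of Cox6b2, of Ndufa4l2 against T cells and of Cox7a1 against neutrophils passed the low-count filter through the higher class. Most members lie within 1 of 0, and the points beyond 2 are isoforms counted with complex IV.

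Neutrophils were lowest in every library for 39 of the 80 members with at least 100 UMIs, where they were for 21.3% of the 15340 genes with that many. T cells were highest in every library for 23 (15.0% of these genes), among them Cox5a, Cox5b, Cox7b, Cox7c, Uqcrfs1, Uqcrh and Atp5a1. Cancer cells were highest for 11 (26.7% of these genes), including Ndufv1, Ndufs3, Ndufs4 and Ndufs8 of complex I, Cox6c and Atp5b. Macrophages were highest for Atp5mpl, Cox6a2, Cox7a1 and Sdhc (9.19% of these genes), and neutrophils for Atp5l, Atp5md and Ndufa7 (12.1% of these genes).

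In complex I, catalytic subunits of the NADH arm were higher in cancer cells than in neutrophils. Ndufv1, which binds FMN and takes electrons from NADH, stood in cancer cells at 91.2 CPM in OE-Vector 1 and at 117, 138 and 66.0 in OE-MLKL 1, 2 and 3. In neutrophils it stood at 29.6, 57.9, 50.1 and 26.8. Every cancer cell value exceeded every neutrophil value. The fitted difference was 1.08 ± 0.13 (log2 ± SE) against neutrophils (adjusted p = 2.45e-06) and 0.79 ± 0.13 against macrophages (adjusted p = 6.35e-05, edgeR). Ndufs1, the iron-sulphur subunit next to it, was at 34.4, 28.8, 31.6 and 35.5 in cancer cells and at 18.3, 22.3, 23.1 and 18.0 in neutrophils. Its groups did not overlap, and it differed by 0.41 ± 0.12 (adjusted p = 0.00566), a call that was lost with DESeq2 size factors.

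Several accessory subunits of complex I were lower in neutrophils. Ndufa5, of the arm that passes electrons to quinone, was at 103, 124, 102 and 59.7 CPM in cancer cells and at 22.3, 35.1, 34.7 and 18.1 in neutrophils. Macrophages had 91.1, 105, 85.4 and 56.3, close to cancer cells. The difference was 1.55 ± 0.11 from cancer cells and also 1.55 ± 0.11 from macrophages (adjusted p = 5.27e-09 and 1.6e-08, edgeR). Ndufc2, of the membrane arm, differed by 1.67 ± 0.14 between macrophages and neutrophils, with 141 ± 36.0 against 42.9 ± 13.98 CPM (SD, n = 4). Ndufa9 and Ndufa10 were also lower in neutrophils than in cancer cells, by 1.36 ± 0.13 and 1.27 ± 0.11.

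Ndufb9, a membrane arm subunit, stood out in cancer cells. Its level there was 723 CPM in OE-Vector 1 and 975, 1027 and 525 in the OE-MLKL libraries, against 306, 350, 381 and 226 in macrophages. T cells had 341, 396, 417 and 278. Every cancer cell value exceeded every value of these classes, with differences of 1.15 ± 0.10 and 1.13 ± 0.10 (adjusted p = 6.2e-08 and 9.57e-08, edgeR). Free RNA was also high, at 520, 706, 704 and 450.

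Other accessory subunits went the opposite way. Ndufa1, needed early in assembly of the membrane arm, was at 68.3, 84.3, 73.3 and 47.1 CPM in cancer cells and at 162, 193, 146 and 97.7 in T cells. It was lower in cancer cells by 1.15 ± 0.14 than in T cells, by 0.99 ± 0.14 than in neutrophils and by 0.86 ± 0.14 than in macrophages. Ndufb7 was lower by 1.10 ± 0.14 than in T cells and by 1.01 ± 0.14 than in neutrophils, and Ndufa3 by 1.11 ± 0.12 than in neutrophils. Ndufa13 and Ndufa7 were lower in macrophages than in neutrophils, by 0.86 ± 0.11 and 0.79 ± 0.11. All these calls held at an adjusted p under 0.05 with the 2 other scalings.

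In total, complex I had 20 of 36 members higher and 7 lower in cancer cells than in neutrophils, where 81.3% of all genes differed. Against macrophages it had 7 higher and 10 lower (69.6% of all genes), and against T cells also 7 higher and 10 lower (66.3% of all genes). Between macrophages and neutrophils 17 were higher and 6 lower (70% of all genes).

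Complex II oxidises succinate and is also an enzyme of the citric acid cycle. Its 4 members were all higher in macrophages than in neutrophils (37.8% of all genes were), with a median difference of 0.54 on the log2 scale against 0.05 for all genes. Sdha, the flavoprotein, was at 108, 98.0, 121 and 102 CPM in macrophages and at 69.9, 69.7, 63.8 and 66.9 in neutrophils, with no overlap. Sdhb, the iron-sulphur subunit, was at 117, 119, 151 and 112 in macrophages and at 63.3, 94.3, 97.5 and 77.7 in neutrophils. The differences were 0.58 ± 0.11 and 0.51 ± 0.11 (adjusted p = 0.000266 and 0.000768, edgeR). Sdhc, a membrane anchor, had the widest gap, with 98.9 ± 8.40 against 34.8 ± 6.98 (SD, n = 4) and a difference of 1.45 ± 0.11.

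The members of complex II were also lower in cancer cells than in macrophages, by 0.69 ± 0.11 for Sdhb and by 0.31 to 0.37 for Sdha, Sdhc and Sdhd. With library size alone the calls of Sdha, Sdhc and Sdhd were lost. Sdhc was higher in cancer cells than in T cells by 0.70 ± 0.11 (adjusted p = 2.85e-05), the opposite of Sdhb, which was lower by 0.65 ± 0.11 (adjusted p = 9.57e-05, edgeR).

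Complex III moves electrons from quinol to cytochrome c. Uqcrfs1, the Rieske iron-sulphur protein, was at 121, 157, 135 and 83.6 CPM in T cells, at 96.5, 135, 114 and 73.9 in macrophages and at 45.2, 56.0, 47.9 and 39.3 in neutrophils. None of the neutrophil values reached the lowest macrophage value. The difference was 1.04 ± 0.11 from macrophages and 0.53 ± 0.11 from cancer cells (adjusted p = 1.14e-06 and 0.000462, edgeR). Uqcrc1, a core protein, was at 97.1, 121, 155 and 103 in cancer cells and at 52.7, 68.9, 81.7 and 70.0 in neutrophils, a difference of 0.52 ± 0.10 (adjusted p = 0.000328, edgeR). Against macrophages and T cells it differed by 0.13 ± 0.10 and 0.07 ± 0.11, which did not pass. Across the complex 6 of 8 members were higher in macrophages than in neutrophils and none lower, where 37.8% and 32.2% of all genes were. With DESeq2 size factors the calls of Uqcrc1 and Uqcrc2 were lost.

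The median member of complex IV differed by -0.23 between cancer cells and neutrophils, where the median of all genes differed by 0.26. In cancer cells 5 members were higher and 7 lower, Cox6b2 among the latter (81.3% of all genes differed). Cox5a, a matrix-side subunit, was at 323, 284, 292 and 171 CPM in cancer cells and at 501, 453, 481 and 279 in T cells. The difference was -0.71 ± 0.13 against T cells and -0.51 ± 0.13 against macrophages (adjusted p = 0.000176 and 0.00217, edgeR). Cox5b, its zinc-binding neighbour, was lower in cancer cells than in T cells by 0.65 ± 0.11 and than in neutrophils by 0.65 ± 0.11. Cox8a, the highest member in 3 classes, was at 870, 844, 845 and 539 in cancer cells and at 1139, 1356, 1215 and 680 in neutrophils, lower by 0.75 ± 0.10 (adjusted p = 4.64e-06, edgeR). Cox7b was lower in cancer cells than in T cells by 1.09 ± 0.14.

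Cox6c went against these subunits. It stood in cancer cells at 1079, 1206, 977 and 625 CPM and in neutrophils at 304, 458, 430 and 239. No neutrophil value reached the cancer cell range, and the difference was 1.17 ± 0.11 (adjusted p = 1.4e-07, edgeR). Cox7a2l was lower in neutrophils too, at 187 ± 38.3 against 487 ± 123 in cancer cells and 481 ± 126 in macrophages (SD, n = 4). Its relative Cox7a2 was at 374 ± 110 in neutrophils and 335 ± 84.2 in cancer cells, lower in cancer cells by 0.42 ± 0.11, a call that was lost with library size alone.

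Ndufa4 separated the classes in another order. Macrophages had 143, 120, 118 and 56.2 CPM, while neutrophils had 131, 232, 162 and 75.8. Cancer cells had 401, 452, 345 and 178 and T cells 428, 444, 337 and 214. Macrophages were lowest in the 3 OE-MLKL libraries and neutrophils in OE-Vector 1. Cancer cells and T cells lay above both myeloid classes within every library, and differed from each other by -0.10 ± 0.12, which did not pass. Against macrophages cancer cells were higher by 1.45 ± 0.12 (adjusted p = 4.32e-08, edgeR). Free RNA held 288, 372, 273 and 167.

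**Figure D3:**
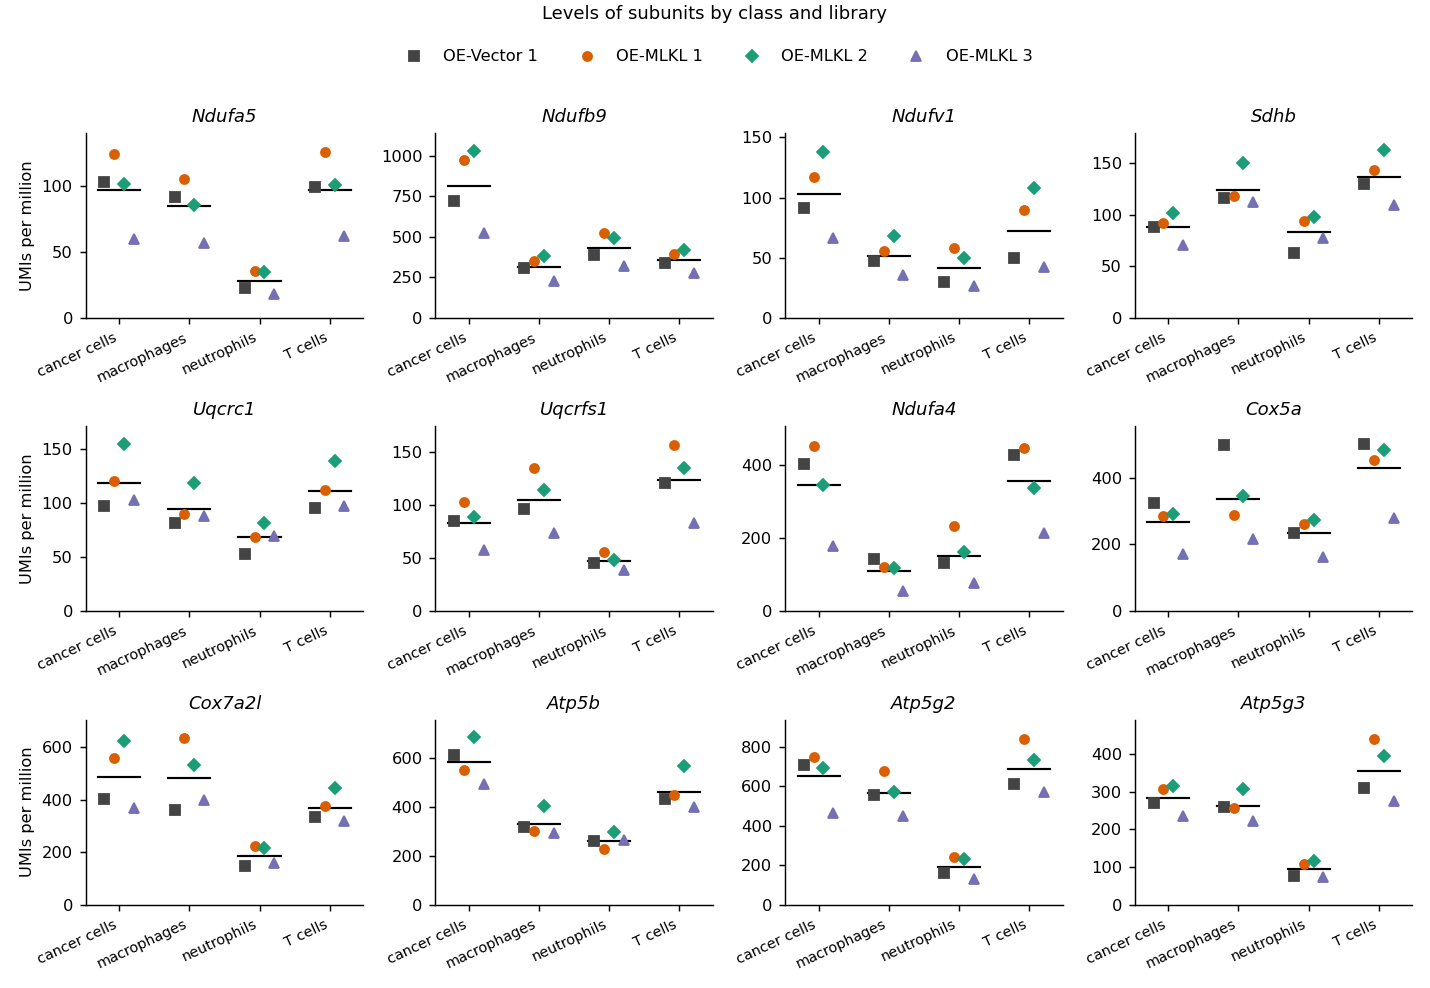
CPM (y axis, from 0) of 12 members in the 4 classes (x axis). Points are libraries and black lines the mean of 4 libraries. Atp5g2, Atp5g3, Ndufa5 and Cox7a2l are lowest in neutrophils in every library, Ndufb9 is highest in cancer cells and Ndufa4 is higher in cancer cells and T cells than in both myeloid classes.

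In complex V, the 3 genes of the c ring were all lower in neutrophils. Atp5g2, the most abundant, was at 709, 747, 694 and 466 CPM in cancer cells, at 555, 679, 574 and 453 in macrophages and at 162, 241, 232 and 131 in neutrophils. Atp5g1 was at 397, 364, 416 and 274 in cancer cells and at 109, 192, 179 and 88.3 in neutrophils. Atp5g3 was at 269, 306, 315 and 236 in cancer cells and at 76.5, 108, 117 and 73.2 in neutrophils. For none of them did a neutrophil library reach the lowest library of cancer cells, macrophages or T cells. The differences between cancer cells and neutrophils were 1.52 ± 0.11, 1.12 ± 0.15 and 1.34 ± 0.11 (adjusted p = 4.71e-09, 5.74e-06 and 2.97e-08, edgeR). Between cancer cells and macrophages they were 0.01 ± 0.10, -0.02 ± 0.15 and -0.09 ± 0.11, and none passed.

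The catalytic head of complex V was also lower in neutrophils than in cancer cells. Atp5a1, the alpha subunit, was at 349, 380, 424 and 338 CPM in cancer cells, at 340, 332, 429 and 336 in macrophages and at 147, 144, 189 and 157 in neutrophils. Atp5b, the beta subunit, which is paired with alpha in the head, followed another order: 615, 552, 687 and 494 in cancer cells, 319, 301, 406 and 295 in macrophages and 261, 228, 297 and 264 in neutrophils. Neutrophils were lower than cancer cells by 0.95 ± 0.11 for Atp5a1 and by 0.88 ± 0.12 for Atp5b. Against macrophages the difference was 1.09 ± 0.11 for Atp5a1, which passed, and 0.24 ± 0.11 for Atp5b (adjusted p = 0.0793, edgeR), which did not. Cancer cells exceeded macrophages in Atp5b by 0.64 ± 0.11 (adjusted p = 0.000146, edgeR), while Atp5a1 differed by -0.14 ± 0.11, which did not pass.

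The small subunits of complex V differed in direction. Atp5j2 was lower in neutrophils than in cancer cells by 0.49 and than in macrophages by 0.31, and Atp5k and Atp5mpl were lower in neutrophils than in macrophages by 0.37 and 0.43. With DESeq2 size factors both calls of Atp5j2 and that of Atp5k were lost. Atp5md, a subunit of the membrane part, was at 273, 417, 317 and 202 CPM in neutrophils and at 222, 184, 166 and 141 in macrophages, lower in macrophages by 0.80 ± 0.12 (adjusted p = 2.24e-05, edgeR). Atp5l, another subunit of that part, was lower in cancer cells than in neutrophils by 0.68 ± 0.10. Altogether 9 members of complex V were higher and 3 lower in cancer cells than in neutrophils (81.3% of all genes differed), and 11 were higher and 2 lower in macrophages than in neutrophils (70% of all genes). Atpif1, the inhibitor of complex V, which is not a member by name, was at 504, 463, 474 and 309 in cancer cells and exceeded neutrophils by 1.28 ± 0.15 (adjusted p = 1.06e-06, edgeR).

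Several isoforms were rare in all 4 classes. Ndufa4l2, a relative of Ndufa4 known to be induced by hypoxia, was at 2.50, 2.17, 3.40 and 8.24 CPM in cancer cells, with 0, 1, 1 and 0 UMIs in T cells. Free RNA held 2.74, 4.80, 6.13 and 5.94, above cancer cells in every library but OE-MLKL 3. Cancer cells exceeded macrophages by 1.87 ± 0.30 and T cells by 4.57 ± 0.60, a value that rests on those 2 T cell UMIs. In the 321 cells of the fibroblast and pericyte gate it reached 189 CPM (95% Poisson interval 174 to 204, counting error only) over the 4 libraries. It was at 173 in OE-Vector 1 and at 118, 218 and 230 in the OE-MLKL libraries, and 98 of the 321 cells had a UMI. Ndufa4l2 overlaps Shmt2, which is transcribed from the other strand.

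Cox6a2, the heart and muscle isoform beside Cox6a1, was at 4.50, 0.832, 3.95 and 6.73 CPM in macrophages and had 18, 0, 4 and 48 UMIs in cancer cells. It passed no filter of the class fits. Without the filter the log2 difference was -4.68 ± 0.45 between cancer cells and macrophages and 4.04 ± 0.62 between macrophages and neutrophils. Neutrophils held 8 UMIs over the 4 libraries, so these sizes are rough and are given without p. In the dendritic cell gate it was at 83.3 CPM (interval 72.0 to 96.0), from 193 UMIs in 28 of 275 cells. OE-Vector 1 gave 148 of these UMIs, at 185 CPM, and OE-MLKL 3 gave 42, at 31.0, while OE-MLKL 1 and 2 held 1 and 2. Cox6a2 overlaps Itgad on the other strand, which had at most 3 UMIs in a macrophage library.

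Cox7a1, the other heart and muscle isoform, was at 9.01, 2.40, 5.32 and 3.54 CPM in macrophages and 1.17 ± 0.288 in cancer cells (SD, n = 4). Macrophages were higher than cancer cells by 2.18 ± 0.33 (adjusted p = 2.55e-05, edgeR) and than neutrophils by 2.41 ± 0.43. Neutrophils held 24 UMIs of Cox7a1 over the 4 libraries, and it did not pass the filter in neutrophils alone. The difference from neutrophils is therefore given without p. Free RNA held 4.96, 1.92, 2.04 and 3.34. Cox6b2 was lowest in cancer cells, with 18, 10, 10 and 17 UMIs, against 47, 28, 50 and 62 in the far smaller sums of macrophages. The fitted difference was -4.37 ± 0.46. Over the 4 libraries Cox6b2 held 0.175 CPM in cancer cells. It entered the fit through the other classes, so no p is given. Its general counterpart Cox6b1 was at 313 ± 77.2 CPM in cancer cells. Cox4i2, the lung isoform outside the naming rule, was at 9.57, 3.05, 8.90 and 5.34 in macrophages and at 0.130 ± 0.101 in cancer cells. The fitted difference was -5.88 ± 0.40. Cox4i2 entered the fit through macrophages, so no p is given either. The general isoform Cox4i1 was at 1208 ± 301 in macrophages. Cox8b had 1 UMI in all classes together, Cox7b2 had 9, all in cancer cells, and Cox8c had 0, which allows up to 3 UMIs or 0.00955 CPM in cancer cells.

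**Figure D4:**
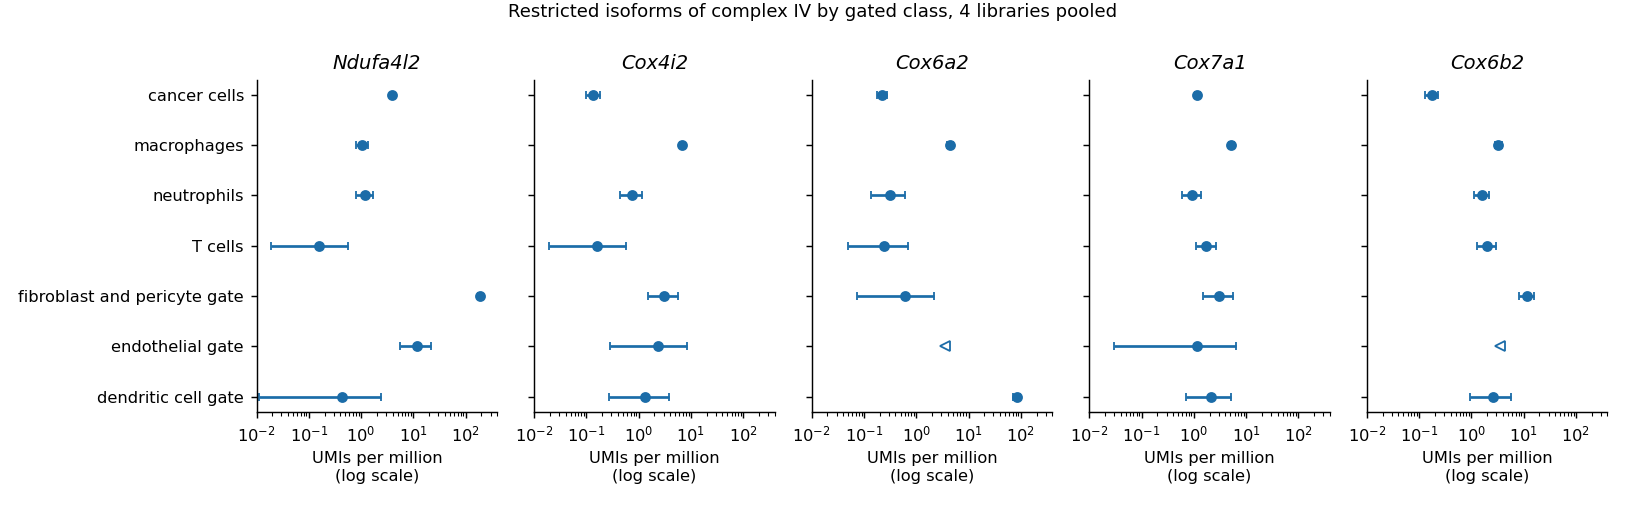
CPM (x axis, log scale) of 5 restricted isoforms of complex IV in 7 gated classes (y axis), over the 4 libraries together. Bars are 95% Poisson intervals, which cover counting error only and are smaller than the point where not visible, and open triangles mark the limit of 3 UMIs for a count of 0. Ndufa4l2 is highest in the fibroblast and pericyte gate at 189 and Cox6a2 in the dendritic cell gate at 83.3.

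Other mitochondrial gene lists were compared in the same fits, in which 81.3% of all genes differed between cancer cells and neutrophils (46.5% higher and 34.8% lower in cancer cells), 70% between macrophages and neutrophils and 66.3% between cancer cells and T cells. All 13 mitochondrially encoded subunits were lower in neutrophils than in cancer cells and than in macrophages, with median differences of 1.52 and 1.15. Of the mitochondrial ribosome, 56 of 78 tested genes were higher and 8 lower in cancer cells than in neutrophils. Of 17 citric acid cycle enzymes, 13 were higher and none lower in that comparison, and Idh3a, the catalytic subunit of the NAD-linked isocitrate dehydrogenase, was higher by 2.27 ± 0.15. Of 44 assembly factors, 27 were higher and 8 lower. Between cancer cells and T cells the assembly factors split 9 to 11, the mitochondrial ribosome 18 to 20 and the regulators 5 to 5. Of the mitochondrially encoded subunits 10 were higher and 0 lower in cancer cells, and of the citric acid cycle enzymes 9 and 4. Of all genes, 35.2% were higher and 31% lower there. Among 14 regulators, 8 were higher and 6 lower in cancer cells than in neutrophils. Tfam, which packages and transcribes mitochondrial DNA, was higher by 1.73 ± 0.14, whereas Nrf1 and Gabpa, which bind the promoter letters described above, were lower by 1.09 ± 0.11 and 0.49 ± 0.10 (adjusted p = 1.92e-07 and 0.000416, edgeR).

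Within the neutrophil gate, the cluster richest in S100a8 and S100a9, the granule-associated calcium-binding proteins, held fewer member UMIs than the leading cluster of its library. These clusters were chosen after their values had been seen. In OE-Vector 1 the members made up 0.8001% of UMIs in the cluster with 13.5% of its UMIs from these 2 genes and 1.44% in the leading cluster. The pairs were 1.38% and 1.81% in OE-MLKL 1, where the first cluster had 72 cells, 1.18% and 1.76% in OE-MLKL 2, and 0.704% and 1.12% in OE-MLKL 3. With S100a8 and S100a9 left out of the total, the pairs were 0.925% and 1.51%, 1.58% and 1.94%, 1.37% and 1.88%, and 0.791% and 1.16%. A further cluster of 207 neutrophils in OE-Vector 1 had 0.618%, with 1.88% of its UMIs from these genes, and a cluster of 97 in OE-MLKL 2 had 1.33%, with 3.59% from them, so low shares were not particular to the clusters rich in these genes. The clusters were drawn from the same cells, so these values are a description. Different clusters led the neutrophils of each library. OE-Vector 1 and OE-MLKL 3 shared their leading cluster in cancer cells and in macrophages, OE-MLKL 1 and 2 shared another in macrophages, and 1 cluster led the T cells of all libraries. The leading macrophage cluster of OE-MLKL 1 and 2 held only 50.1% and 50.8% of their macrophages. The macrophage cluster leading in OE-Vector 1 and OE-MLKL 3 held 1199 of 2435 in OE-MLKL 1 and 1035 of 2126 in OE-MLKL 2.

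The comparison of OE-MLKL with OE-Vector asked whether libraries labelled with the Mlkl construct differed in these genes from the library labelled with the empty vector. The counted Mlkl did not follow these labels. This comparison rested on a single OE-Vector library, whose spread was taken to equal that of the OE-MLKL libraries, with 2 residual degrees of freedom among samples. In cancer cells 0 of 80 members tested passed an adjusted p of 0.05 (0.0059% of all genes) and 0 passed an unadjusted p of 0.05 (4.41% of all genes). In macrophages 0 of 80 passed (0.0148% of all genes) and 3 had an unadjusted p under 0.05 (5.6% of all genes). In neutrophils 0 of 78 passed (0% of all genes), with 0 at the unadjusted level (7.72% of all genes). In T cells 0 of 77 passed (0.0088% of all genes), again with 0 at the unadjusted level (4.39% of all genes). DESeq2 and limma-voom also called 0 members.

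The 3 macrophage members with the smallest unadjusted p were lower in OE-MLKL. Cox7a1 was at 9.01 CPM in OE-Vector 1 and at 2.40, 5.32 and 3.54 in OE-MLKL 1, 2 and 3, a difference of -1.36 ± 0.47 (adjusted p = 0.849). Cox5a was at 497 and then 287, 345 and 217, a difference of -0.90 ± 0.37 (adjusted p = 0.867, edgeR). Ndufb2, of the membrane arm of complex I, was at 95.6 and then 55.7, 74.8 and 54.2, a difference of -0.73 ± 0.30 (adjusted p = 0.867). In each case OE-Vector 1 lay above the OE-MLKL libraries, but none passed after adjustment for the number of genes tested.

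In cancer cells the smallest p belonged to Ndufs4, an accessory subunit of the NADH arm, at 146 CPM in OE-Vector 1 and 111, 109 and 84.0 in the OE-MLKL libraries (-0.60 ± 0.36, adjusted p = 0.999, edgeR). Uqcrb of complex III was at 175 and then 139, 113 and 69.2, and Sdhd at 66.2 and then 60.3, 45.8 and 40.4. Their differences were -0.77 ± 0.48 and -0.52 ± 0.37 with the same adjusted p. OE-Vector 1 was the highest library for all of them. In T cells Uqcrb was again first, at 200 and then 133, 139 and 87.8 (-0.74 ± 0.40), before Ndufb2 (-0.52 ± 0.37) and Ndufa13 (-0.51 ± 0.40). In neutrophils the direction turned: Ndufa10 (0.53 ± 0.35), Ndufa11 (0.73 ± 0.59) and Ndufa8 (0.68 ± 0.56) were first, and Ndufa8 was at 74.0 in OE-Vector 1 and at 178, 151 and 75.1 in the OE-MLKL libraries. None passed. The sum of Ly6c2, Ccr2, Chil3, Plac8 and Vcan, listed as monocyte markers and none of them at 0, also moved with the label in the neutrophil gate. It went from 4.59 per 10000 UMIs in OE-Vector 1 to 76.7, 88.8 and 28.7 in OE-MLKL 1, 2 and 3. The genes were not separated, so a single gene could carry the sum, and it does not show monocytes in the gate. The part of these genes in the neutrophil differences was not tested.

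Counted by sign, 62 of 80 members were lower in OE-MLKL in cancer cells, 67 of 80 in macrophages, 31 of 78 in neutrophils and 44 of 77 in T cells. The median member differed by -0.20, -0.34, 0.08 and -0.06 on the log2 scale, where the median of all genes differed by 0.03, 0.04, 0.04 and 0.02. Much of this rested on OE-MLKL 3. It was the lowest of the 4 libraries for 72 of 80 members in cancer cells, 64 of 80 in macrophages, 65 of 78 in neutrophils and 67 of 77 in T cells, where it was lowest for 16.4%, 15.8%, 16.5% and 15.5% of all genes. Without it the medians were 0.05, -0.17, 0.29 and 0.19, and 30 of 80, 55 of 79, 12 of 77 and 22 of 77 members were lower. The share of all genes that were lower was 47.1%, 46.1%, 46.8% and 47.7% with all libraries and 48.4%, 48.2%, 48.3% and 48.8% without OE-MLKL 3, where the medians of all genes were 0.02, 0.02, 0.03 and 0.02. The sign of the member median thus turned in cancer cells and T cells. Leaving out OE-MLKL 1 moved it the other way, to -0.32 in cancer cells (69 of 80 lower) and -0.26 in T cells (59 of 76 lower), and leaving out OE-MLKL 2 moved it to -0.29 (72 of 80) and -0.14 (55 of 77). In neutrophils it was 0.01 without OE-MLKL 2 and turned under other settings, to -0.09 without OE-MLKL 1, where 55 of 79 members were lower, and to -0.04 with cells of at least 1000 UMIs and 500 genes, where 45 of 77 were.

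Other measures moved with OE-MLKL 3, chosen after its values had been seen. The 96 genes of cytosolic ribosomal proteins held 16.7% of its cancer cell UMIs, against 23.0%, 24.7% and 23.5% for OE-Vector 1, OE-MLKL 1 and OE-MLKL 2. The nuclear RNAs Malat1 and Neat1 held 3.48%, against 1.49%, 1.33% and 1.17%. In T cells the ribosomal values were 20.8% against 23.8%, 32.5% and 27.9%, and the nuclear RNAs 1.86% against 1.12%, 0.627% and 0.680%. In free RNA of OE-MLKL 3 mitochondrially encoded subunits reached 15.2%, against 8.61%, 8.24% and 7.39%. Their part in the low member levels was not tested.

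**Figure D5:**
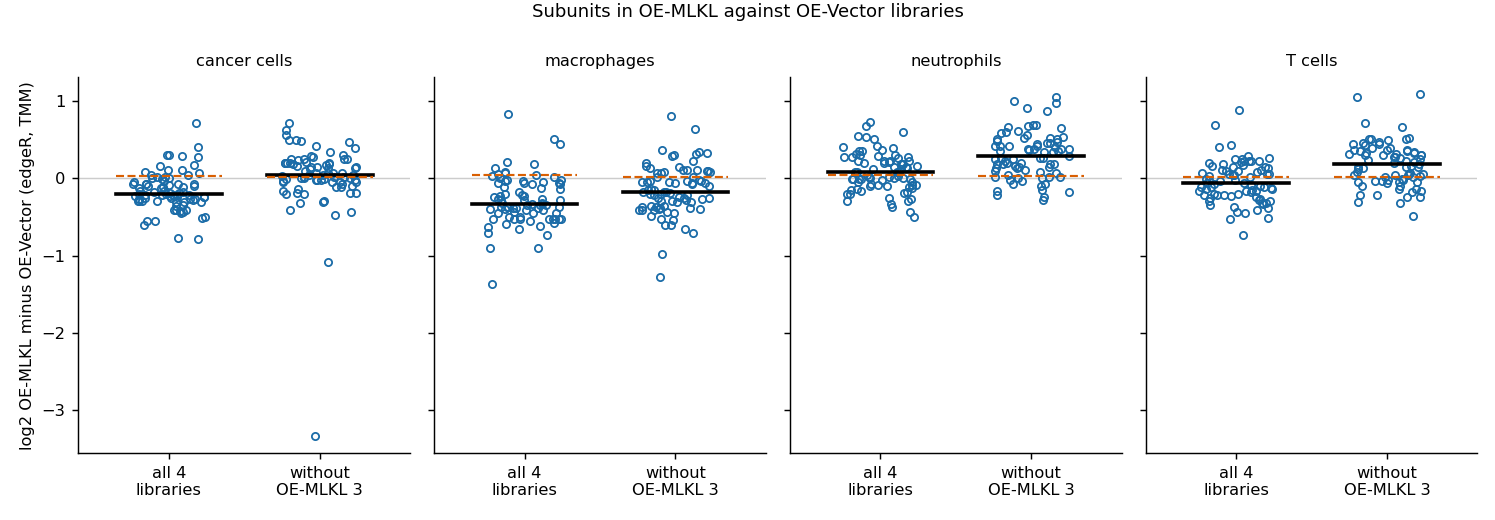
Fitted log2 difference (y axis) of OE-MLKL from OE-Vector for each member tested in 4 classes, with all 4 libraries and without OE-MLKL 3 (x axis). Black lines are medians of the members and dashed lines medians of all genes tested. Without OE-MLKL 3 the member median moves up in each class, from -0.20 to 0.05 in cancer cells and from 0.08 to 0.29 in neutrophils, and the lowest point in cancer cells is Cox6a2, which had 18, 0 and 4 UMIs in the 3 libraries left.

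Without OE-MLKL 3, 1 of 77 members passed in neutrophils (9.3% of all genes) and 1 of 77 in T cells (6.9% of all genes), both below the share of all genes, and none in cancer cells (3.25% of all genes) or macrophages (2.11% of all genes). Only 3 libraries enter these fits, 1 of them OE-Vector, with 1 residual degree of freedom among samples, and take the lone library to vary like the others. Ndufa11 of complex I was higher in OE-MLKL neutrophils by 1.06 ± 0.25 (adjusted p = 0.043, edgeR), from 45.0 CPM in OE-Vector 1 to 90.9 in OE-MLKL 1 and 120.9 in OE-MLKL 2, while OE-MLKL 3 had 44.2. Ndufv1 was higher in T cells by 1.06 ± 0.25 (adjusted p = 0.0025), with 49.6 against 89.4 and 108, and 42.0 in OE-MLKL 3. Both calls therefore rest on leaving out the library that lay at the level of OE-Vector 1. Median UMIs per cell in OE-Vector 1, OE-MLKL 1, 2 and 3 were 1166, 719, 746 and 1353 in neutrophils. They were 24236, 12102.5, 11513 and 19368 in cancer cells and 8381, 4069, 4772.5 and 6917.5 in macrophages. In T cells they were 3595, 3375, 2621 and 3130. The part of this depth in the differences between groups was not tested.

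The difference of the OE-MLKL change between cancer cells and each immune class was tested as an interaction with the library as a block. No member of 79 passed against macrophages (0.00716% of all genes), neutrophils (0% of all genes) or T cells (0% of all genes). At an unadjusted p under 0.05 there were 0, 3 and 0 members. Without OE-MLKL 3 the change of Atp5h, a stalk subunit of complex V, was higher in neutrophils than in cancer cells by 0.81 ± 0.21 (adjusted p = 0.0284, edgeR). It was the 1 member of 79 that passed there, where 6.79% of all genes did. Against macrophages and T cells none of the 79 passed without OE-MLKL 3, where 2.95% and 2.18% of all genes did.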

How the data were processed

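The authors deposited UMI counts per gene and barcode, made per the labels by the 10x 3′ v2 assay and, per the submitters' processing notes, with Cell Ranger 2.1.1 and mm10. The study's methods and the matrix headers each name another Cell Ranger version, and which made the counts is not settled. Barcodes with at least 500 UMIs, more than 200 genes, under 10% mitochondrial and at most 5% haemoglobin UMIs were kept, and likely doublets were removed at 0.8% per 1000 cells. Cells were gated by summed marker UMIs, and cells of several gates or none were left out. UMIs were summed per class and library and tested with edgeR 4.0.16 (TMM, filterByExpr, quasi-likelihood test, Benjamini-Hochberg adjustment at 0.05). Class comparisons had the library as a block. DESeq2 1.42.0 and limma 3.58.1 were alternatives, and the fits were tested on simulated data. The simulated counts were independent between genes and held no shift of a whole library, so they cannot judge the group comparison in these data. Intervals and limits cover counting error only, and p-values measure only the spread between these samples. Promoters came from RefSeq, where 67 of 83 members matched by symbol.

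The members and lists were chosen with earlier results of these data known. Named were fixed core subunits, isoform families, the 3 largest called differences in each direction per class comparison and, between groups, called members or else the 3 with the smallest p. Other members, such as Cox6c, Sdhc and the genes highest or lowest in one class, were named after their values were seen. The gates with stricter thresholds and the subtraction of free RNA were also added after seeing the data. Some items are not reported here.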

Additional observations from a re-analysis of the deposited data

Results flagged for a closer look

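Single libraries were checked for standing apart among the 4 libraries, pooled over both groups, by the gap to the nearest library over the whole range. Of 40 measures, 6 passed Dixon's 95% critical value, all through OE-MLKL 3, where chance flags about 1 in 20 independent measures. These measures overlap and come from the same 4 libraries, so their count cannot be set against that rate. Complex V held 0.453% of cancer cell UMIs and 0.491% of free RNA in that library, the lowest values. Mitochondrially encoded subunits held 1.81% of neutrophil UMIs and 15.2% of free RNA, the highest values. Mitochondrially encoded UMIs per member UMI reached 3.48 in macrophages and 10.7 in free RNA, again the highest values.

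Signals also appeared in cells outside the 4 classes compared. Ndufa4l2 reached 189 CPM and Cox4i2 3.08 CPM in the fibroblast and pericyte gate over all libraries, and Cox6a2 reached 83.3 CPM in the dendritic cell gate. The Cox4i2 value lies at the low end of the 3.05 to 9.57 CPM of macrophages. These values have no test, and differences between these gates and the 4 classes were not tested.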

How the results depend on the processing

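Over 88 values of single genes, 1112 of 1144 alternatives kept direction and side of the threshold, 31 lost the call, 1 gained it and 0 changed sign. These 88 values do not cover all members. Over all called members, library size alone lost 18 of 43 calls between cancer cells and macrophages. With DESeq2 size factors Uqcr11 changed sign between cancer cells and neutrophils. Leaving out 1 library at a time gave 35 to 43 called members between cancer cells and macrophages, 52 to 58 between cancer cells and neutrophils, 32 to 40 between cancer cells and T cells and 49 to 59 between macrophages and neutrophils. Between groups it gave 0 to 0 in cancer cells and macrophages, 0 to 1 in neutrophils, 0 to 1 in T cells and 0 to 1 for the interaction, each single call coming without OE-MLKL 3. With the 20 most abundant genes left out of the total, the member share rose to 2.34% in OE-Vector 1 and to 2.15%, 2.14% and 1.61% in OE-MLKL 1, 2 and 3 for macrophages. For neutrophils it rose to 2.32% in OE-MLKL 1 and 2.15% in OE-MLKL 2, above macrophages in both. In OE-Vector 1 and OE-MLKL 3 it rose to 1.65% and 1.25%, below macrophages. The cause was not tested.

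No paired analysis was possible because the groups share only replicate number 1 among the libraries analysed. The comparison of groups rested on 1 OE-Vector library and on the spread between the OE-MLKL libraries. Libraries held 2295194 to 4734677 UMIs in T cells and 70020260 to 87770071 in cancer cells.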

Other observations

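The member share was also read in smaller gates, over the 4 libraries together. It was 1.38% of UMIs in the fibroblast and pericyte gate, 1.40% in B and plasma cells, 1.52% in endothelial cells, 1.52% in NK cells, 1.605% in dendritic cells and 1.68% in mast cells. Libraries gave unequal parts of these gates, so the values give no order: dendritic cells lay above mast cells in OE-Vector 1 (1.91% against 1.84%) and in OE-MLKL 3 (1.40% against 1.08%). Cox6b2 stood at 11.7 CPM in the fibroblast and pericyte gate (95% Poisson interval 8.27 to 16.05, counting error only), from 38 UMIs. Ndufa4l2 stood at 11.7 CPM in the endothelial gate, from 10 UMIs in 2 of 96 cells.

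Among regulators, Ppargc1b, a coactivator of mitochondrial genes, was higher in macrophages than in neutrophils by 4.03 ± 0.36 on the log2 scale and than in cancer cells by 1.98 ± 0.24. Suclg2, the GTP-specific subunit of succinate-CoA ligase, was higher in cancer cells than in neutrophils by 2.72 ± 0.12.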
